A study of Mus musculus with 72 samples.

Results

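The microRNA genes of the array, apart from 12 that were set aside, were described in the hippocampus of mice after contextual fear conditioning. They were taken as every probe set of the array whose annotation held exactly 1 symbol of the form Mir plus a digit, or Mirlet7. Mir212, Mir132, Mir505, Mir219a-1, Mir219a-2, Mir138-2, Mir9-1, Mir9-2, Mir497, Mir128-2, Mir181c and Mir488 were left out, and 1 probe set was kept per symbol, the one of highest mean. This gave 294 genes of the 18820 that had a probe set of a single symbol. Of these, 291 were microRNA genes and 3 were host transcripts (Mir17hg, Mir99ahg and Mir100hg). A further 67 probe sets listed a microRNA together with other symbols and were not used as members.

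Contextual fear conditioning pairs a chamber with a foot shock, and mice returned to the chamber later retrieve that association. The study profiled 72 arrays, 1 per mouse, from C57BL/6J males aged 2 months, with 9 mice in each of 8 groups. Trained mice received 1 shock of 2 s and 1.5 mA, with both hippocampi taken at 30 min in FC30 mice, at 4 h in FC4, at 12 h in FC12 and at 24 h in FC24 after training. RT30 mice were trained likewise, were tested in the chamber for 5 min at 24 h and were dissected 30 min after the test. The CC30, CC4 and CC12 mice were handled without training and dissected at the hours of the day that matched the trained groups. All mice were of the same inbred strain, were handled beforehand and were housed singly. CC30 and CC4 fell in the light phase of the day and CC12 in the dark phase. Each value below is a log2 signal. A level is the mean of the deposited values, and each group value or difference was taken after the first principal component of all arrays (PC1) had been subtracted. Standard errors (SE) and p-values came from limma on the 18 arrays of a pair, adjusted by Benjamini-Hochberg over all 35556 probe sets, and a probe set was called at an adjusted p under 0.1, two-sided.

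MicroRNAs are cut from longer transcripts. The nuclear enzyme Drosha with its partner Dgcr8 releases a hairpin from the primary transcript, Dicer1 cuts the hairpin to a short duplex, and 1 strand is loaded into an Argonaute protein, where bases 2 to 8 of the strand, the seed, pair with messenger RNAs. Many microRNA genes lie in introns of host genes, others stand in clusters cut from 1 primary transcript, and several families have copies on different chromosomes. RNA for these arrays was not selected for small species, so a probe set may read the primary transcript, the hairpin or the mature strand. Bulk tissue was measured, so that fewer cells of a type and less RNA per cell cannot be told apart. Copies with nearly identical sequence, such as those of miR-218 or miR-103, are uncertain because their probes could share targets.

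The mature sequences of the genes on which the results turn are shown with the seed in capitals, since several of the genes that moved in opposite directions carry the same seed. They are from RefSeq (GRCm38.p6), in which 265 of the 294 members had a mature sequence, and 129 members shared a seed with another.
miR-107-3p (Mir107): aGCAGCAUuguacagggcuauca
miR-103-3p (Mir103-1 and Mir103-2): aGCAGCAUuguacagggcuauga
miR-30a-5p (Mir30a): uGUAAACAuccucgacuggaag
miR-384-5p (Mir384): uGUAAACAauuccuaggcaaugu
miR-218-5p (Mir218-1 and Mir218-2): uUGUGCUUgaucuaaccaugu
miR-551b-3p (Mir551b): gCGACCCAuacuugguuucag
miR-26a-5p (Mir26a-1): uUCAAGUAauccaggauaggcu
miR-26b-5p (Mir26b): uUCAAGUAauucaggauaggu
miR-32-5p (Mir32): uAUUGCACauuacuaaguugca
miR-674-5p (Mir674): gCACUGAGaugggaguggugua

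On that build, miR-107-3p lies at chr19:34820700-34820722 on the minus strand, within Pank1. The 3p strand of Mir103-2 lies at chr2:131288103-131288125 within Pank2, and that of Mir103-1 at chr11:35782447-35782469 within Pank3, both on the plus strand. The 3 host genes encode pantothenate kinases, the first enzymes of coenzyme A synthesis. The 5p strand of miR-218 is encoded at 2 places, at chr11:35616840-35616860 within Slit3 and at chr5:48223966-48223986 within Slit2, and Slit proteins are secreted axon guidance cues. miR-26a-5p lies at chr9:119031811-119031832 within Ctdspl, a phosphatase gene, and miR-32-5p at chr4:56895272-56895293 on the minus strand within Tmem245. miR-384-5p lies at chrX:105344332-105344354 on the minus strand, miR-30a-5p at chr1:23272274-23272295, miR-551b-3p at chr3:29416879-29416899 and miR-674-5p at chr2:117185151-117185172.

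The microRNA probe sets were dimmer than the array as a whole. The median member had a mean log2 signal of 4.70 over all arrays, against 5.83 for all probe sets, and 114, 96, 69 and 15 members fell in the 4 bins of equal size into which all probe sets were cut from dimmest to brightest. As a dim reference, the 1006 probe sets of olfactory receptors, genes of the nasal epithelium, had a median of 3.46 and a 95th percentile of 4.68. Above that percentile lay 150 of the 294 members (51.0%), against 66.2% of all probe sets. Signals of different probe sets depend on their probes, so the order of levels that follows describes the array and is not an order of RNA amounts.

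Of the 12 brightest members, 7 lay in the clusters of the imprinted region of chromosome 12, which is transcribed from the maternal copy and holds the long noncoding RNAs Meg3, Rian and Mirg. Mir341 had the highest mean at 10.31, followed by Mir665 at 9.26, Mir134 at 8.84, Mir598 at 8.57, Mir329 at 8.55, Mir680-2 at 8.52, Mir568 at 8.47, Mir100hg at 8.46, Mir485 at 8.34, Mir540 at 8.21, Mir667 at 8.19 and Mir128-1 at 8.14. Mir134 is known for limiting dendritic spine size in hippocampal neurons, and miR-128 is abundant in brain neurons. At the other end stood Mir450b at 2.54, Mir450-1 at 2.54 and Mir297-1 at 2.52. Of the 12 brightest, Mir680-2 had the highest SD over the 72 arrays, at 0.285, and Mir667 the lowest, at 0.081. Within a group, the median SD of the members was 0.131, against 0.113 for all probe sets.

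Placed on the RefSeq gene table, 254 members had a strand and position, and 131 of them lay in 41 clusters, each with neighbours on 1 strand at most 10 kb apart. The cluster that runs between Mir379 and Mir369 on chromosome 12 was the largest, with 29 members, 27 of them above the dim reference, a median level of 6.61 and a range of 3.43 (Mir299a) to 8.84 (Mir134). Beside it on the same chromosome, Mir337, Mir540 and Mir665 lay between 7.88 and 9.26, and Mir370 and Mir341 at 6.00 and 10.31. Among the dimmest clusters, Mir471 and Mir463 on chromosome X had a median of 2.57, the erythroid pair Mir144 and Mir451a 2.72, the cluster from Mir201 to Mir547 on chromosome X 2.73, the 5 members from Mir302b to Mir367, known from pluripotent cells, 2.73, and Mir29a with Mir29b-1 2.85. Muscle microRNAs of the miR-1, miR-133 and miR-206 families (5 members) had a median of 2.90, and the leukocyte genes Mir142 and Mir155 of 3.23. None of these was above the dim reference.

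**Figure D1:**
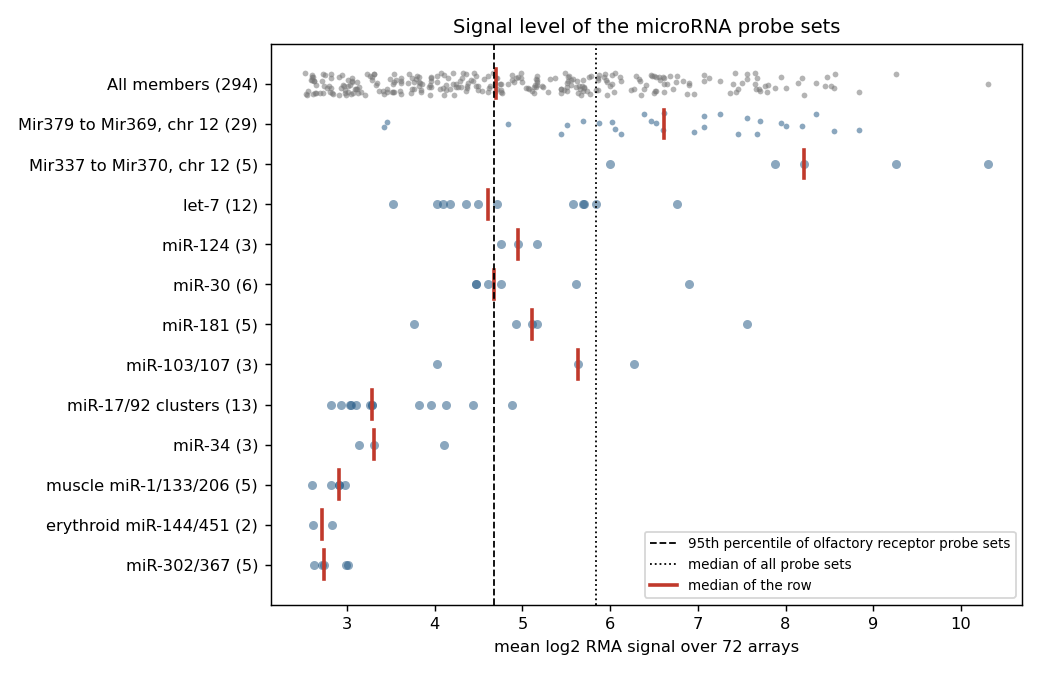
Mean log2 signal over 72 arrays (horizontal axis) for all members and for selected clusters and families (rows, number of members in brackets), with 1 point a member, the row's median as a red bar, and 2 reference lines for dim and median probe sets. The chromosome 12 clusters have medians of 6.61 or higher, and the muscle, erythroid and miR-302 rows lie below the dim reference at 4.68.

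Brain families were spread within themselves. The 12 let-7 members, a family known for its rise with differentiation, ran from 3.52 (Mirlet7f-1) to 6.76 (Mirlet7b), and 6 of them were above the dim reference. The 3 genes of miR-124, a neuronal microRNA, lay between 4.76 and 5.16. Among the miR-181 genes, Mir181a-1 had 3.76 and Mir181b-1, its neighbour in the same cluster, 7.56. The 6 miR-30 genes ran from 4.47 (Mir30b) to 6.90 (Mir30d). Single neuronal genes were brighter, with Mir9-3 at 5.76 the lowest of Mir134, Mir128-1, Mir137, Mir138-1 and Mir9-3. The 13 members of the miR-17 to miR-92 clusters, known for cell proliferation, had a median of 3.28, and 1 of them was above the dim reference. Mir29a and Mir29b-1 (3.06 and 2.64), the 3 miR-34 genes (3.14 to 4.10), the 3 genes of Mir182, Mir183 and Mir96 (2.73 to 3.61) and the inflammatory microRNAs Mir146, Mir146b and Mir155 (2.62 to 4.25) were all below it. Of the miR-125 genes, Mir125a at 5.00 was above and the other two below. Among microRNAs known from other cells of the brain, Mir338 of oligodendrocytes had 5.52, and Mir143 and Mir145a of smooth muscle 4.74 and 4.88. Mir126a of endothelium had 2.95. The 5 listed microRNAs of choroid plexus and ependyma ran from 3.30 (Mir34c) through a median of 4.10 to 6.56 (Mir204). Of these 5, 2 were above the dim reference.

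Over the 8 groups, the moderated F test called 30 members (10.2%), against 10.1% of all probe sets. Of the 30, 25 were above the dim reference, and 13 had their lowest mean in CC12, 13 their highest in CC4. The same was not counted over all 3584 called probe sets, and whether it is particular to the members was not tested. At the top of the order stood Mir107 (adjusted p = 4.3e-06), Mir218-2 (adjusted p = 9.1e-06), Mir26a-1 (adjusted p = 4.9e-05), Mir674 (adjusted p = 6.8e-05), Mir384 (adjusted p = 1.0e-04) and Mir551b (adjusted p = 1.3e-04). Of the 30, 12 were called by the F test and in none of the pairs of groups that were compared. Not every pair of the 8 groups was compared. The 12 were Mir674, Mir124a-1, Mir124a-2, Mir138-1, Mir99a, Mir100, Mir101a, Mir341, Mir485, Mir463, Mir486 and Mir670. Their group means spanned between 0.11 and 0.30.

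The groups at either end differed among these 12. Each adjusted p in this paragraph is that of the F test over the 8 groups. The highest and lowest groups named for a gene were not compared with each other. Mir670 had its highest mean in RT30, at 5.67, and its lowest in FC12, at 5.37 (adjusted p = 0.0387). Mir100, known with Mir99a from 1 family, was highest in FC24 at 5.43 and lowest in CC12 at 5.17 (adjusted p = 0.0224). Mir99a lay between 7.31 in RT30 and 7.53 in CC4 (adjusted p = 0.0453). The neuronal gene Mir124a-1 lay between 4.62 in CC12 and 4.89 in FC4 (adjusted p = 0.0662), and Mir138-1, a brain microRNA known from dendritic spines, between 5.77 in FC30 and 6.01 in CC4 (adjusted p = 0.0783). Mir341, the brightest member, lay between 10.22 in FC4 and 10.38 in RT30 (adjusted p = 0.0795).

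The question whether training changed these genes was asked at each time against handled mice of the same hour. At 30 min, 0 of the 294 members were called in FC30 against CC30, where 0.256% of all probe sets were called. At 4 h (FC4 against CC4) and 12 h (FC12 against CC12), 0 members were called, as were 0% of all probe sets, and the same held for FC24 against CC30, which shares its controls with FC30. An unadjusted p under 0.05 was reached by 30 members (10.2%) in FC30 against CC30 and 6.76% of all probe sets, by 15 members (5.10%) in FC4 against CC4 and 5.35% of all probe sets, by 12 (4.08%) in FC12 against CC12 and 4.06% of all, and by 19 (6.46%) in FC24 against CC30 and 4.31% of all. The methods' t-test with Benjamini-Hochberg adjustment also called 0 in each of the 4. The median member SE was 0.056 in FC30 against CC30, 0.063 in FC4 against CC4, and 0.056 in FC12 against CC12.

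The largest member differences in these comparisons all missed the threshold. In FC30 they were Mir674 (0.26 higher than in CC30, adjusted p = 0.296) and Mir145a (difference -0.26, adjusted p = 0.792). In FC4 they were Mir297b (0.22 against CC4, adjusted p = 0.922) and Mir128-1 (-0.18, adjusted p = 0.922). In FC12, Mir688 differed from CC12 by 0.20 and Mir376a by -0.26, both with an adjusted p of 1.00. In FC24, Mir592 differed from CC30 by 0.19 and Mir694 by -0.19, again with adjusted p = 1.00. Mir547, which encodes a microRNA of a chromosome X cluster, had a mean level of 2.80, below the dim reference. It averaged 2.86 ± 0.06 in FC30 and 2.77 ± 0.06 in CC30 (SD, n = 9 each), a difference of 0.09 with an adjusted p of 0.551. Whether the response to training differed between times was tested as an interaction. For 4 h against 30 min, 0 members were called (0.045% of all probe sets), and for 12 h against 30 min 0 (0.0872%). In the first, 22 members (7.48%) and 7.12% of all probe sets had an unadjusted p under 0.05. In the second, 20 members (6.80%) and 5.35% of all probe sets did.

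After retrieval, 2 members were called in RT30 against CC30 (0.680%), where 0.278% of all probe sets were called (0.186% higher and 0.0928% lower). An unadjusted p under 0.05 was reached by 35 members (11.9%) and 6.91% of all probe sets. Of the 2 called, 1 was lower and 1 higher, and each shares its seed with at least 1 other member. Mir26a-1 encodes miR-26a, known to act on dendrites and plasticity in hippocampal neurons. It ran from 5.27 through a median of 5.69 to 5.96 in RT30, against 5.82, 6.08 and 6.40 in CC30. The 2 groups overlapped over a narrow stretch, and all 9 RT30 mice were below the CC30 mean. The difference was -0.44 (SE 0.092), with an adjusted p of 0.0632 by limma. In FC30 mice, Mir26a-1 had a median of 5.88 and a range of 5.59 to 6.16. Mir26b, which carries the same seed, averaged 4.02 ± 0.13 in RT30 and 3.96 ± 0.12 in CC30 (SD, n = 9 each), with an adjusted p of 0.927.

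Mir32, whose seed is shared with 5 other members, the miR-25 and miR-92 genes among them, ran from 4.71 through 5.23 to 5.37 in RT30, against 4.73, 4.78 and 4.97 in CC30. In RT30, 8 of 9 mice were above the CC30 mean, and the ninth was lower than every CC30 mouse. The difference was 0.34 (SE 0.072, adjusted p = 0.0712 by limma). In FC30 mice, Mir32 had a median of 5.16 and a range of 4.79 to 5.33. The host genes did not pass the test: Ctdspl differed by 0.02 in RT30 against CC30 (adjusted p = 0.980) and Tmem245 by 0.05 (adjusted p = 0.909). Both calls were lost by the methods' t-test, and also without replicate 3 of CC30, an array that stands apart in its group on PC1 (adjusted p = 0.132 for Mir26a-1 and 0.147 for Mir32). The Mir26a-1 call held under 8 of 11 alternatives and the Mir32 call under 6 of 11. Among cell type markers, the endothelial gene Cldn5 was lower in RT30 than in CC30 (-0.20, adjusted p = 0.0673), 1 of the 3 endothelial markers. Cldn5 was also lower in RT30 than in FC24 (-0.18, adjusted p = 0.0839), and among handled mice in CC4 than in CC30 (-0.31, adjusted p = 0.0202). The log2 of the summed signals of the 3 markers ran from 9.85 to 10.01 in RT30 and from 9.89 to 10.10 in CC30. The part of these cells in the results was not tested.

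Against other trained groups RT30 had no called member. In RT30 against FC30, 0 members and 0% of all probe sets were called. There, 10 members (3.40%) and 3.90% of all probe sets had an unadjusted p under 0.05. The ends were Mir369 at 0.19 and Mir26a-1 at -0.22, both with adjusted p = 1.00. In RT30 against FC24, 0.152% of all probe sets and 0 members were called, and 31 members (10.5%) had an unadjusted p under 0.05 against 6.20% of all probe sets. Mir674 was the highest there at 0.26 (adjusted p = 0.155) and Mir26a-1 the lowest at -0.33 (adjusted p = 0.305). The methods' t-test called 0 in both.

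Mir674 had its highest group means in the groups taken 30 min after an exposure to the chamber. It ran from 7.34 through 7.58 to 7.87 in RT30 and from 7.38 through 7.56 to 7.77 in FC30, against 6.98, 7.28 and 7.48 in CC30. FC24 mice lay between 7.10 and 7.45. All 9 RT30 mice and all 9 FC30 mice were above the CC30 mean, with some overlap of the ranges. In RT30 against CC30 the difference was 0.30 (SE 0.075, adjusted p = 0.173). With the spread shared over all 8 groups in 1 fit, Mir674 passed in RT30 against CC30 (adjusted p = 0.00305), in FC30 against CC30 (adjusted p = 0.0266) and in RT30 against FC24 (adjusted p = 0.0417). That fit lost the call of Mir32 in RT30 against CC30. Mir410 stands on a probe set shared with the noncoding RNA Mirg and so is not a member. That probe set was higher in RT30 than in CC30 by 0.29 (adjusted p = 0.0484) and than in FC24 by 0.29 (adjusted p = 0.0140), and in FC30 it differed from CC30 by 0.17 (adjusted p = 0.647).

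**Figure D2:**
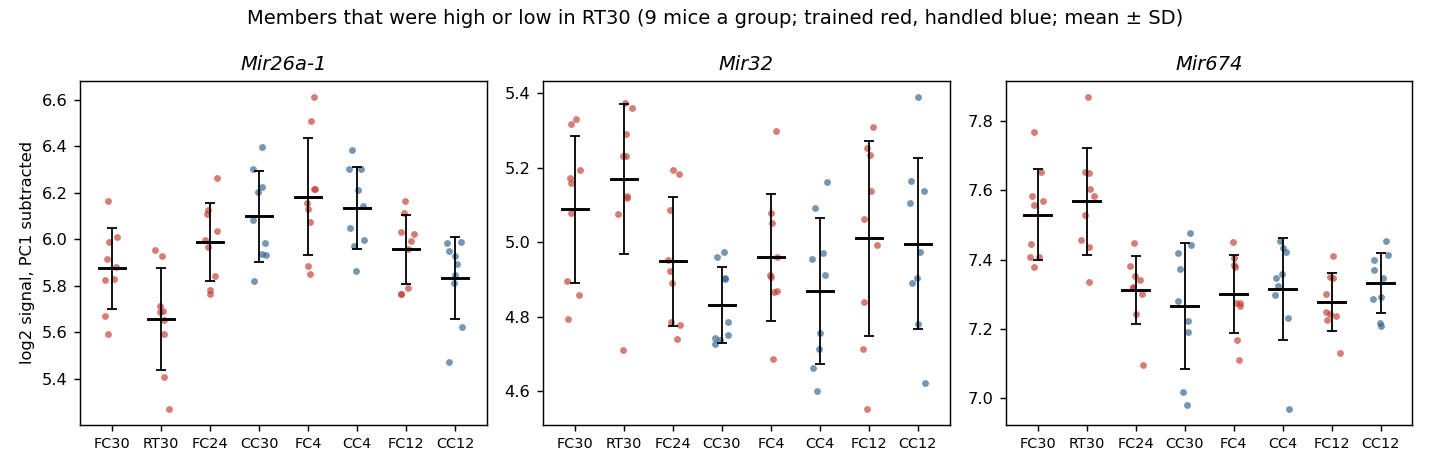
Log2 signal after subtraction of PC1 (vertical axis) of Mir26a-1, Mir32 and Mir674 in each mouse of the 8 groups (horizontal axis), 9 mice a group, with the mean and SD in black, trained mice in red and handled mice in blue. RT30 holds the lowest mean of Mir26a-1 (5.66) and the highest of Mir32 (5.17) and Mir674 (7.57).

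Most calls lay between handled mice of different hours, which asks how the genes follow the time of day without training. In CC12 against CC4, 18 members were called (6.12%), 7 higher and 11 lower, against 5.01% of all probe sets (2.54% higher and 2.47% lower). In CC12 against CC30, 8 were called (2.72%), 4 higher and 4 lower, against 3.5% of all probe sets (2.05% higher and 1.44% lower). Without replicate 2 of CC12 and replicate 3 of CC30, which stand apart on PC1, 3 of those 8 stayed called. The shares of members were thus near those of the whole array. In CC4 against CC30, both in the light phase, 0 members and 0.0731% of all probe sets were called, and the methods' t-test called 0 members. An unadjusted p under 0.05 was reached by 18 members (6.12%) and 6.21% of all probe sets. The ends there were Mir301 at 0.24 (adjusted p = 0.305) and Mir297b at -0.20 (adjusted p = 0.918). The first pair of comparisons shares the CC12 mice.

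Trained mice gave a comparison of the same hours with no array in common, in which the time since training differs as well. FC12 against FC4, a comparison added after the data had been seen, called 10 members (3.40%), 4 higher and 6 lower, and 4.22% of all probe sets (2.51% higher and 1.71% lower). Of the 18 members called in CC12 against CC4, 16 had the same sign in FC12 against FC4, and 6 were called in both: Mir107, Mir218-2 and Mir551b were lower at 12 h, and Mir384, Mir30b and Mir151 higher. With the replicate block, the FC12 against FC4 calls of Mir218-2 (adjusted p = 0.135), Mir384 (adjusted p = 0.147) and Mir30b (adjusted p = 0.167) were lost. The 6 are 33.3% of the 18 and 60.0% of the 10. Among all probe sets, 674 were called in both, 37.8% of one list and 44.9% of the other. Of the 1782 probe sets called in CC12 against CC4, 1704 had the same sign in FC12 against FC4. The difference between the 2 comparisons, tested as an interaction that was also added, called 0 members and 0% of all probe sets. In it, 13 members (4.42%) and 4.44% of all probe sets had an unadjusted p under 0.05.

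**Figure D3:**
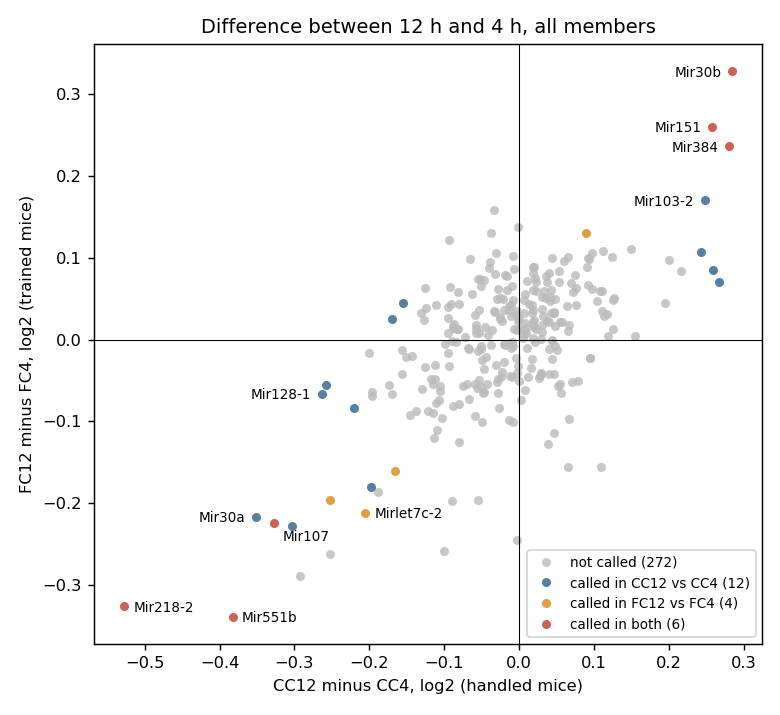
Difference in log2 signal between 12 h and 4 h for the 294 members, in handled mice (CC12 minus CC4, horizontal axis) and in trained mice (FC12 minus FC4, vertical axis), with 1 point a member, coloured by the comparison in which it was called. The 6 members called in both lie in the lower left and upper right corners.

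Mir107, which shares its seed with miR-103, was lower in the dark. It ran from 5.95 through 6.02 to 6.31 in CC12, against 6.29, 6.40 and 6.47 in CC4 and 6.21, 6.33 and 6.53 in CC30. A single CC12 mouse, at 6.31, reached into the range of the other two groups. The difference was -0.33 (SE 0.043, adjusted p = 2.5e-04) from CC4 and -0.27 (SE 0.048, adjusted p = 0.00475) from CC30. In trained mice it was 6.05, 6.13 and 6.38 in FC12, against 6.06, 6.39 and 6.62 in FC4, a difference of -0.22 (adjusted p = 0.0562).

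Mir103-2, with the same seed, went the other way. It ran from 5.66 through 5.74 to 5.92 in CC12, against 5.36, 5.47 and 5.74 in CC4. All 9 CC12 mice were above the CC4 mean, with an overlap of the ranges, and the difference was 0.25 (SE 0.053, adjusted p = 0.0111). Mir103-1, which encodes the identical 3p strand on another chromosome, differed by -0.20 (SE 0.073, adjusted p = 0.188). Its level of 4.02 lay below the dim reference.

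Mir384, a gene of the X chromosome with the miR-30 seed, was higher in the dark. It ran from 6.59 through 6.68 to 6.93 in CC12, against 6.30, 6.43 and 6.52 in CC4 and 6.31, 6.43 and 6.54 in CC30. The CC12 mice overlapped neither group. The difference was 0.28 (SE 0.044, adjusted p = 9.7e-04) from CC4 and 0.27 (SE 0.044, adjusted p = 0.00243) from CC30, and in FC12 against FC4 it was 0.24 (SE 0.060, adjusted p = 0.0436).

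Mir30a carries that seed as well and was lower: it ran from 4.14 through 4.44 to 4.55 in CC12, against 4.54, 4.72 and 5.04 in CC4, so that the ranges met only at their ends. The difference was -0.35 (SE 0.068, adjusted p = 0.00575). Mir30b was higher, at 4.36, 4.61 and 4.90 in CC12 against 4.09, 4.36 and 4.52 in CC4 (0.28, SE 0.078, adjusted p = 0.0530). It was also higher in CC12 than in CC30 (0.28, adjusted p = 0.0592) and in FC12 than in FC4 (0.33, SE 0.090, adjusted p = 0.0651). Of the other 4 miR-30 genes, none was called there. Mir30c-1 differed by 0.01, Mir30c-2 by -0.01, Mir30d by -0.03 and Mir30e by -0.12. Both Mir30a and Mir30b had mean levels just under the dim reference.

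Of the member differences in the pairs of groups compared, that of Mir218-2 in CC12 against CC4 was the largest in size. It ran from 5.88 through 6.17 to 6.66 in CC12, against 6.53, 6.82 and 6.97 in CC4. The difference was -0.53 (SE 0.098, adjusted p = 0.00418), and all 9 CC12 mice were below the CC4 mean. It was lower in CC12 than in CC30 by a difference of -0.31 (adjusted p = 0.0986, a call that held under 5 of 11 alternatives) and in FC12 than in FC4 by -0.33 (SE 0.084, adjusted p = 0.0478). Mir218-1, which encodes the same 5p strand from Slit2, ran from 7.51 through 7.63 to 7.80 in CC12 and from 7.43 through 7.72 to 7.97 in CC4, a difference of -0.05 (SE 0.066, adjusted p = 0.860).

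**Figure D4:**
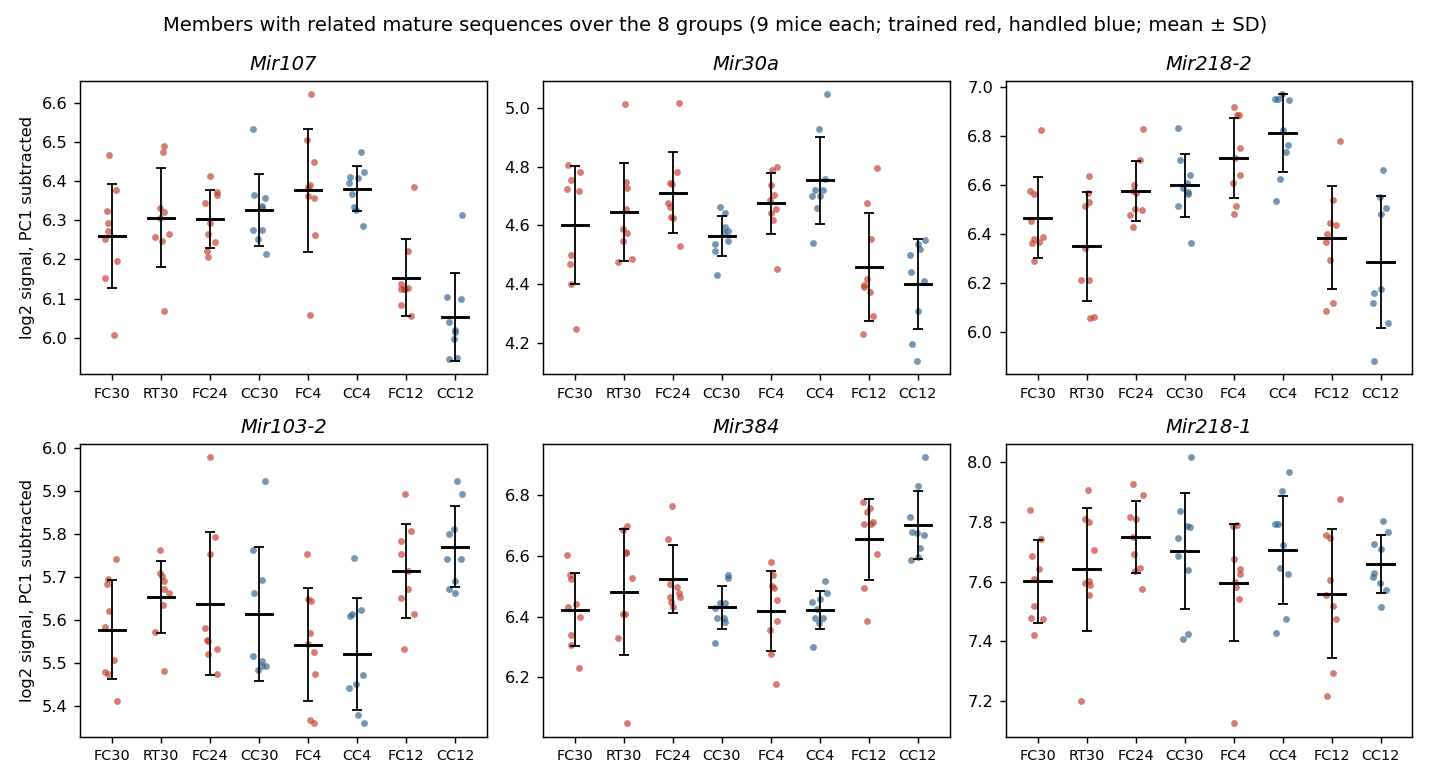
Log2 signal after subtraction of PC1 (vertical axes) in each mouse of the 8 groups (horizontal axes) for genes with the same seed or strand, placed 1 above the other, with 9 mice a group, the mean and SD in black, trained mice in red and handled mice in blue. Mir107, Mir30a and Mir218-2 had their lowest means in CC12, Mir103-2 and Mir384 their highest, and Mir218-1 differed by -0.05 between CC12 and CC4.

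Mir551b was lower at 12 h in both kinds of mice. It ran from 6.29 through 6.42 to 6.59 in CC12, against 6.54, 6.84 and 7.05 in CC4 (-0.38, SE 0.060, adjusted p = 0.00108). In FC12 it was 6.19, 6.49 and 6.64, against 6.60, 6.76 and 7.09 in FC4 (-0.34, SE 0.071, adjusted p = 0.0145). The ranges overlapped at their ends in both. Mir151 was higher, at 5.46, 5.66 and 6.02 in CC12 against 5.28, 5.41 and 5.78 in CC4 (0.26, adjusted p = 0.0544), and in FC12 than in FC4 by 0.26 (adjusted p = 0.0256).

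The other members called lower in CC12 against CC4 included Mir26a-1 (-0.30, adjusted p = 0.0419), the gene that was also lower in RT30, Mir128-1 (-0.26, adjusted p = 0.0203), Mir301 (-0.26, adjusted p = 0.0294), Mirlet7a-2 (-0.22, adjusted p = 0.0529) and Mir342 (-0.20, adjusted p = 0.0240), besides Mir330 (-0.17, adjusted p = 0.0846) and Mir135b (-0.15, adjusted p = 0.0997). The Mir330 call held under 6 of 11 alternatives and the Mir135b call under 3 of 11. Mir301, at a mean level of 3.54, and Mirlet7a-2, at 4.36, lay below the dim reference, as did Mir135b. Mirlet7a-2 and Mir342 were also lower in CC12 than in CC30 (-0.17, adjusted p = 0.0740, and -0.16, adjusted p = 0.0737). Mir128-1 is the brighter end of this list, with a median of 8.03 in CC12 and 8.25 in CC4. Called in FC12 against FC4 only were Mirlet7c-2 (-0.21, adjusted p = 0.0272), Mir326 (-0.20, adjusted p = 0.0608), the neuronal gene Mir9-3 (-0.16, adjusted p = 0.0635) and Mir20b (0.13, adjusted p = 0.0880). The Mir20b call held under 5 of 10 alternatives, and its mean level of 3.95 lay below the dim reference. All 12 let-7 members had a difference below 0 in CC12 against CC4, with a median of -0.06 against 0.00 for all probe sets, 1 of them called. In FC12 against FC4, 2 of the 12 were above 0 and 1 was called lower. The 3 miR-124 genes differed by -0.25 to -0.14 in CC12 against CC4, and none was called.

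In the chromosome 12 cluster from Mir379 to Mir369, 24 of 29 members had a difference above 0 in CC12 against CC4, with a median of 0.08 against 0.00 for all probe sets, and 3 were called, all higher. Mir377 ran from 7.69 through 7.87 to 7.98 in CC12, against 7.33, 7.66 and 7.80 in CC4 (0.24, SE 0.064, adjusted p = 0.0420). Mir381 differed by 0.26 (adjusted p = 0.0543) and Mir376c by 0.27 (adjusted p = 0.0551). Mir376c, at 3.28 in the median CC4 mouse, was among the dim members.

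In CC12 against CC30, 25 of the 29 were above 0 and Mir377 was called (0.25, adjusted p = 0.0386). Mir154 of this cluster had the highest difference of any member there, 0.31, without a call. In FC12 against FC4, 17 of the 29 were above 0, the median was 0.03 and none was called. In FC12 against CC12, which shares the CC12 mice, 1 of the 29 was above 0, the median was -0.09 against 0.00 for all probe sets, and none was called. Of the long RNAs of the same region, Rian was higher by 0.24 in CC12 than in CC4 (adjusted p = 0.0853), by 0.16 than in CC30 (adjusted p = 0.0456) and by 0.22 in FC12 than in FC4 (adjusted p = 0.0375). The probe set of Mirg and Mir410 ran from 7.95 through 8.13 to 8.28 in CC12, against 7.18, 7.51 and 8.03 in CC4, a difference of 0.61 (SE 0.088, adjusted p = 4.8e-04), and in FC12 it was 0.41 above FC4 (adjusted p = 0.00239). Mir341 and Mir370, both within Rian, differed by 0.09 and -0.12 in CC12 against CC4 and were not called.

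Host genes were set beside the members that they span on the same strand. A host was found for 125 members, and for 85 of them the host had a probe set, 68 hosts in all. In CC12 against CC4, 10 of the 18 called members had a measured host. None of the 10 hosts was called, where 5.01% of all probe sets were, and their differences lay between -0.06 and 0.06. Those of the members were between 0.15 and 0.53 in size. The members had been chosen by their calls in this comparison and the hosts had not, so a larger size of the members was set by that choice. Of all 68 hosts, 3 were called higher and 1 lower. Slit3 differed by 0.06 beside Mir218-2 (adjusted p = 0.401), Pank1 by -0.06 beside Mir107 (adjusted p = 0.533) and Ctdspl by 0.03 beside Mir26a-1 (adjusted p = 0.839). In CC12 against CC30, 4 called members had a measured host and none of these hosts was called, where 3.5% of all probe sets were. In FC12 against FC4 the host of Mir107, Pank1, was itself lower (-0.12, adjusted p = 0.0977), and Pank2 was higher (0.09, adjusted p = 0.0547) where Mir103-2 differed by 0.17 without a call. The host of Mir32, Tmem245, was 0.11 above CC4 in CC12 mice (adjusted p = 0.0270), where Mir32 was not called.

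**Figure D5:**
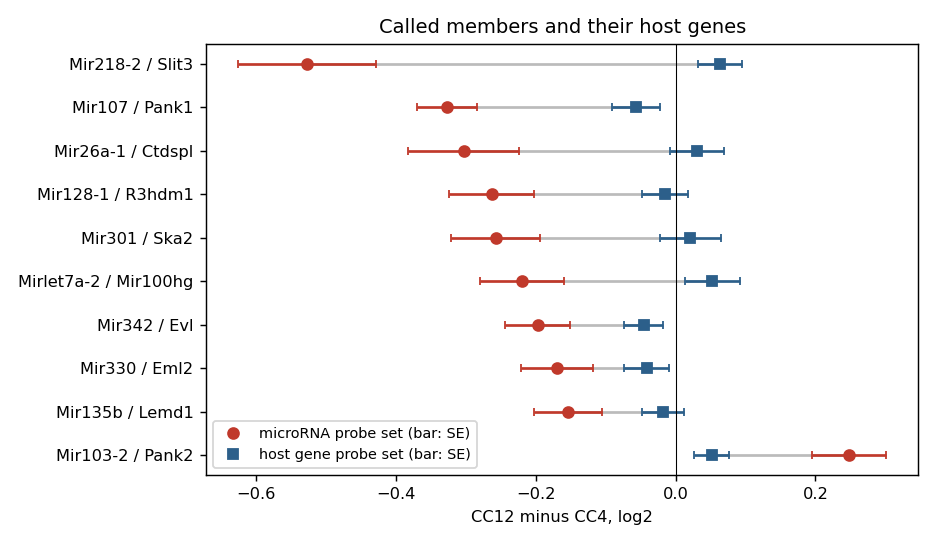
Difference in log2 signal between CC12 and CC4 (horizontal axis) of the 10 called members with a measured host (red circles) and of the host gene (blue squares), with bars of 1 SE. The hosts lie between -0.06 and 0.06, and the members, which were chosen by their calls in this comparison, further out on either side.

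Genes of the microRNA pathway were measured for 35 of the 36 listed. None was called in FC30, RT30 or FC24 against CC30, in FC4 against CC4, in FC12 against CC12, or in RT30 against FC30 or FC24. In CC12 against CC4, 2 of the 35 were called, both higher, where 5.01% of all probe sets were called, a share near that of the list. Dgcr8, the partner of Drosha, averaged 7.95 ± 0.08 in CC12 and 7.75 ± 0.08 in CC4 (SD, n = 9 each), with an adjusted p of 0.00711 by limma, and Ago3, an Argonaute, averaged 8.96 ± 0.05 in CC12 and 8.79 ± 0.06 in CC4, with an adjusted p of 0.00251 by limma. Both were also higher in CC12 than in CC30 (Dgcr8 by 0.12, adjusted p = 0.0755, and Ago3 by 0.09, adjusted p = 0.0966), where Dicer1 was lower (-0.10, adjusted p = 0.0964). In FC12 against FC4, where 4.22% of all probe sets were called, 3 of the 35 were, all higher: Dgcr8 by 0.13 (adjusted p = 0.0671), Ago3 by 0.17 (adjusted p = 0.00628) and Ago2, the cutting Argonaute, by 0.11 (adjusted p = 0.0728).

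Markers of cell types were read in the same arrays. All 6 markers of hippocampal neurons were measured, with a median level of 9.75, and among pairs of groups only Prox1 was called, in 1 pair (0.18 higher in FC12 than in FC4, adjusted p = 0.0594). The median difference of the 6 in that pair was -0.008. Of the oligodendrocyte markers, 2 of 4 were measured, and Opalin was lower by a difference of -0.70 in CC12 against CC4 (adjusted p = 2.2e-05), -0.62 in CC12 against CC30 and -0.52 in FC12 against FC4, while the log2 of the summed signals of both ran from 9.35 to 9.97 in CC12 and from 9.81 to 10.18 in CC4. The microglial gene Cx3cr1, 1 of 4 microglial markers, was lower in CC12 than in CC4 (-0.20, adjusted p = 0.0176), and the log2 of their sum ran from 9.70 to 9.88 in CC12 and from 9.75 to 9.91 in CC4. Against CC30, Cx3cr1 was also lower in CC12 (-0.25, adjusted p = 0.00265). Of the 3 endothelial markers, Pecam1 was lower in CC12 than in CC30 (-0.17, adjusted p = 0.0777) and in FC12 than in FC4 (-0.23, adjusted p = 0.0579). The median difference of the 3 was -0.17 in CC12 against CC30 and -0.006 in FC12 against FC4. Cldn5 was lower in CC4 than in CC30 (-0.31, adjusted p = 0.0202). Of the 4 astrocyte markers, Aqp4 was lower in FC12 than in FC4 (-0.13, adjusted p = 0.0118). The erythroid gene Alas2, 1 of 3 blood markers measured, was higher in CC12 than in CC4 by 0.34 (adjusted p = 0.00573). The 8 measured markers of choroid plexus were called in no comparison, and the log2 of their sum ran from 9.35 to 12.82 in CC12 and from 9.36 to 12.46 in CC4. Over the pairs compared, their median difference ran from -0.45 (RT30 against FC30) to 0.48 (CC12 against CC30). It was 0.11 in CC12 against CC4, 0.38 in FC30 against CC30 and 0.01 in RT30 against CC30. The part of these cell types in the time-of-day results was not tested.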

How the data were processed

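The values were the log2 RMA signals of an Affymetrix Mouse Gene 1.1 ST array plate, averaged over 2 scans, background corrected, quantile normalized and summarized per probe set by the authors and deposited to 2 decimals. The genome build behind the probe sets is not given in the sources used here. Symbols came from the platform annotation, and sequences, positions and host genes from RefSeq (GRCm38.p6). The members, lists and comparisons were chosen with earlier results of these data known.

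PC1 of the probe-set-centred values of all 72 arrays (17.4% of the variance) was subtracted. The study's methods also removed a first component, found after standardizing the values, and its stated share of the variance was larger, so that the component removed here need not be the same. Pairs of groups, the F test over 8 groups and the interactions were fitted with limma 3.58.1 in R 4.3.3 on all 35556 probe sets, with Benjamini-Hochberg adjustment. The study used local false discovery rates, not used here. The script was tested on simulated data. Members named in the text were those called in a pair of groups or the F test (the 8 largest per direction), the 12 brightest and 3 dimmest, the ends of each comparison, Mir410 and Mir547, fixed families and clusters, and pathway and host genes. Mir135b, beyond that number, was named after its values were seen, to complete the list of hosts. Clusters joined neighbours at most 10 kb apart. All 72 mice were separate animals. The number of arrays limits the precision, as does the spread of dim probe sets, and no read depth applies.

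Alternatives were no component or 2 components removed, PC1 as a covariate, 1 fit of all groups, the methods' t-test, trend and robust estimation, array weights, the dimmest of 4 bins of probe sets left out, a replicate block, and leaving out 6 arrays that stand apart in their group on PC1 or the second component.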

Additional observations from a re-analysis of the deposited data

Results flagged for a closer look

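For each of the 23 members called between 2 groups, FC12 against FC4 included, the 9 values of each group were searched for a mouse far from the rest (184 groups of values). A gap to the nearest mouse above the 95% critical value of Dixon's test was found in 7, where chance gives about 1 in 20. None of the 7 was on an array that stands apart as a whole.

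The highest mouse stood off in 5 of them. Mir107 was at 6.53 in replicate 2 of CC30, with the next at 6.36, and at 6.31 in replicate 9 of CC12, with the next at 6.10. Mir151 was at 5.78 in replicate 4 of CC4 and the next at 5.49. In FC24, Mir135b was at 4.84 in replicate 7 (next 4.41) and Mir326 at 6.08 in replicate 6 (next 5.77). The lowest mouse stood off in the other two: Mir32 was at 4.71 in replicate 4 of RT30, where the next mouse had 5.08, and Mir330 at 6.15 in replicate 1 of CC12, with the next at 6.30. Why these mice differed was not tested.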

How the results depend on the processing

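No called difference changed sign under any alternative, and of the 38 differences recomputed, 16 stayed past the threshold under each one run. Among those were Mir107 and Mir384 in CC12 against both CC4 and CC30, Mir218-2, Mir551b, Mir30a, Mir103-2, Mir128-1 and Mir26a-1 in CC12 against CC4, and Mir107, Mir551b, Mir151 and Mirlet7c-2 in FC12 against FC4. RT30 against CC30 called 2 members, but 0 by the methods' t-test, 0 without replicate 3 of CC30 and 1 with PC1 found again without the 6 arrays that stand apart. In 1 fit of all groups it gained Mir674 and lost Mir32. CC12 against CC30 called 3 and 2 in place of 8 without replicate 2 of CC12 and replicate 3 of CC30, with PC1 kept or found again. FC30 against CC30 and RT30 against FC24 called 1 member (Mir674) in 1 fit of all groups, and RT30 against FC24 also 1 with array weights. FC12 against FC4 called 16 in place of 10 with 2 components removed. With the median of all probe sets as the dim reference, 84 members in place of 150 lay above it.

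The study states that the 9 mice of a group came from 9 independent experiments, and the labels do not say whether replicate numbers follow these. Replicate numbers were not taken to pair the mice in the main fits, where at most 3 of 9 same-numbered pairs in a comparison correlated above 0.1. That count does not settle whether same-numbered mice shared an experiment. FC4 against CC4 came nearest, with 4 of 9 best with their own number and a median r of 0.089 (highest 0.376), against -0.010 for other pairs. In RT30 against FC24, 3 of 9 were best with their own number, with a median r of 0.084 against -0.017 for other pairs. With the replicate block, 0 members were called in RT30 against CC30, 6 in CC12 against CC30, 15 in CC12 against CC4, 7 in FC12 against FC4 and 32 over the 8 groups.

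Every other count stayed within 1.5 times the main one. The cause of these changes was not tested. Dim members limit the report: 13 of the 19 called in a planned pair of groups had a mean above the dim reference.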
